A study of Mus musculus with 8 samples.

Results

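Cholesterol is made from acetyl-CoA by a long chain of enzymes, and 8 genes of that pathway and its control were followed here, of 20340 genes in the count tables. They were taken as a given list and all 8 were found in every library. Of the enzymes, Hmgcs1 encodes the cytosolic HMG-CoA synthase near the start of the mevalonate pathway, Idi1 the isopentenyl diphosphate isomerase, and Fdft1 squalene synthase, which commits the pathway to sterols. Sqle encodes squalene epoxidase, which adds the oxygen that later becomes the sterol's hydroxyl group. Cyp51 (lanosterol demethylase) and Msmo1 (a sterol C4-methyl oxidase) strip methyl groups from lanosterol and the sterols made from it. Srebf2 encodes SREBP2, the transcription factor that drives these enzymes, and Insig1 encodes the protein that holds the SREBP precursor in the endoplasmic reticulum. No receptor that takes up lipoproteins is among the 8, so uptake was read from a list of other genes.

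When sterols run low in the endoplasmic reticulum, SREBP2 travels to the Golgi, is cut there, and its freed part enters the nucleus and turns on the synthesis enzymes and Insig1. Insig1 then closes the loop, because its protein retains SREBP2 when sterols return. In the brain, where the blood-brain barrier keeps lipoprotein cholesterol out, sterols are made locally, most of all by oligodendrocytes during myelination.

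Live cells were sorted from brain hemispheres of male C57BL/6J mice aged 8 to 9 weeks after a 60 min transient occlusion of the middle cerebral artery, a stroke model in which a suture is withdrawn to restore flow. The 8 libraries cover each combination of genotype label (Prdx1-/- or WT), hemisphere (ipsilateral, on the side of the occlusion, or contralateral) and time (48 h or 24 h), with 1 library each. Prdx1 encodes peroxiredoxin 1, an enzyme that removes peroxides, and the study asked what it does in stroke. All animals had the occlusion, so the contralateral hemisphere is not an unoperated brain. Whether the hemispheres that share label and time came from the same animals is not established here. The labels do not give the number of animals in a library. A p-value here therefore speaks of variation from library to library, part of which may be technical, and not from animal to animal.

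The libraries held 39433266 to 70111421 UMIs as deposited (a UMI is 1 counted RNA molecule), and 4019 to 5441 cells per library were used. Cells were assigned to a class by marker genes, none of which is among the 8 genes. The classes held 20786 microglia-like, 7449 monocyte/macrophage-like, 5887 neutrophil-like, 743 T and NK-like and 766 B-like cells. Any pair of libraries shared 3 to 17 cell barcodes. Libraries labelled Prdx1-/- held Prdx1 transcripts at 24 h. Prdx1 in microglia-like cells was at 6.49 and 6.08 CPM (UMIs of the gene per 1000000 UMIs of the class in that library) in the ipsilateral and contralateral 48 h libraries labelled Prdx1-/-, but at 512 and 90.0 CPM in the 24 h libraries with that label. Libraries labelled WT held 644 and 341 CPM at 48 h and 516 and 262 CPM at 24 h on the same sides.

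Promoter sequence is shown to place the letters that SREBP2 and its partners bind beside the genes the hemisphere results turn on. It was taken from the RefSeq promoter table (GRCm38.p6, 250 bases before to 50 bases after the start), which held 6 of the 8 genes, all but Sqle and Fdft1. The 4 shown are those of the 6 with an unadjusted p under 0.05 between hemispheres in microglia-like cells. Each line gives a stretch before the start, read 5′ to 3′ on the gene's strand. The capitals mark the sterol regulatory element letters TCACNCCAC, which SREBP binds, in Hmgcs1, and the NF-Y site letters CCAAT (or their reverse complement ATTGG) in the others.
Hmgcs1 (chr13:119690184-119690252, + strand): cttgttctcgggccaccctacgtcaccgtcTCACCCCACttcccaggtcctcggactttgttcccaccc
Insig1 (chr5:28071166-28071230, + strand): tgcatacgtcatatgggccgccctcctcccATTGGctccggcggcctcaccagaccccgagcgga
Idi1 (chr13:8885562-8885605, + strand): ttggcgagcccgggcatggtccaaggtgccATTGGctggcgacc
Cyp51 (chr5:4104698-4104756, - strand): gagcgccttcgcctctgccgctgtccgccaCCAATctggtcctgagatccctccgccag

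Both strands of all 300 bases were searched for 4 motifs. TCACNCCAC was found in 1 of the 6 promoters, that of Hmgcs1, and in 1.24% of all 32851 promoters of the table. CCAAT was found in 6 of 6 promoters and in 37.4% of all promoters. The Sp1 site letters GGGCGG were likewise in 6 of 6, against 35.7% of all promoters, and the E-box CACGTG was in 1 of 6 (Insig1), against 7.15%. SREBP is known to act together with NF-Y and Sp1 at such promoters. Of 13 other synthesis enzymes in the table, 12 held CCAAT, 11 held GGGCGG and none held TCACNCCAC. A match is a description of the letters and not a bound site, and the absence of a match says only that these letters are not in this window.

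Microglia, the resident macrophages of the brain, came first in number. In microglia-like cells Sqle and Insig1 were higher in the ipsilateral hemisphere, and Hmgcs1 was higher by a small amount. Over all genes, 44.1% of the 13543 tested differed between hemispheres in this class, with 21.8% higher in the ipsilateral one, and the 3 of 8 genes that passed stand against that background. The median log2 fold change over the 8 genes was 0.23, against -0.01 over all genes tested.

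Sqle, the squalene epoxidase gene, is on chromosome 15 (59315077 to 59331192 in GRCm38). It was at 5.43 and 5.86 CPM in the ipsilateral libraries labelled Prdx1-/- (48 h, 24 h) and at 3.91 and 5.17 CPM in those labelled WT. On the contralateral side it was at 3.60 and 2.57 CPM under Prdx1-/- and at 2.74 and 1.89 CPM under WT. In CPM, every ipsilateral library lay above every contralateral one, with the narrowest gap at 48 h. The log2 fold change was 1.07 (SE 0.19), with an adjusted p of 0.00188 by edgeR (quasi-likelihood test, Benjamini-Hochberg adjustment over all genes, as in all such tests here). The counts behind these levels are small, 33 to 185 UMIs in the ipsilateral libraries and 61 to 104 UMIs in the contralateral ones. At 24 h alone the log2 fold change was 1.42 (edgeR adjusted p = 0.00335) and at 48 h alone 0.62 (edgeR adjusted p = 0.0711). The difference between those times gave a log2 interaction of -0.79 (SE 0.29), with an unadjusted p of 0.0206 and an adjusted p of 0.263 by edgeR. It did not pass. With cells thinned to 5000 UMIs and shallower ones left out, shares of cells holding Sqle overlapped between hemispheres, described with no test. At 48 h, ipsilateral and contralateral shares were 0.938% (5 cells) and 1.07% (29 cells) under WT. Under Prdx1-/- they were 1.71% (8 cells) and 1.52% (38 cells). At 24 h they were 2.17% and 0.796% under WT, and 2.69% and 1.03% under Prdx1-/-.

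Insig1, the retention protein of the sterol sensor, is on chromosome 5 (28071363 to 28078662). It averaged 23.6 ± 4.38 CPM in the ipsilateral hemisphere and 15.3 ± 1.05 CPM in the contralateral one (SD, n = 4 libraries each). The ipsilateral values were 26.2 and 25.7 CPM under Prdx1-/- (48 h, 24 h) and 25.3 and 17.0 CPM under WT, and the contralateral values were 14.8 and 14.9 CPM under Prdx1-/- and 16.9 and 14.6 CPM under WT. The groups did not overlap, although the ipsilateral 24 h library labelled WT lay close to the highest contralateral one. The log2 fold change was 0.70 (SE 0.14, edgeR adjusted p = 0.00347), and it passed in 22 of 22 alternative analyses.

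Hmgcs1, the synthase near the start of the pathway, is on chromosome 13 (119690379 to 119708260). It averaged 26.4 ± 1.29 CPM in the ipsilateral hemisphere and 24.2 ± 0.889 CPM in the contralateral one (SD, n = 4 each). It was higher in 4 of 4 pairs of libraries that share label and time, and the ipsilateral values (25.1 to 28.0 CPM) lay just above the contralateral ones (23.2 to 25.0 CPM). The log2 fold change was 0.22 (SE 0.07, edgeR adjusted p = 0.0305). This call was lost in 11 of 22 alternatives, among them scaling by library size only (log2 0.13, edgeR adjusted p = 0.174) and leaving out the dividing cells described below (log2 0.21, edgeR adjusted p = 0.0656).

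**Figure D1:**
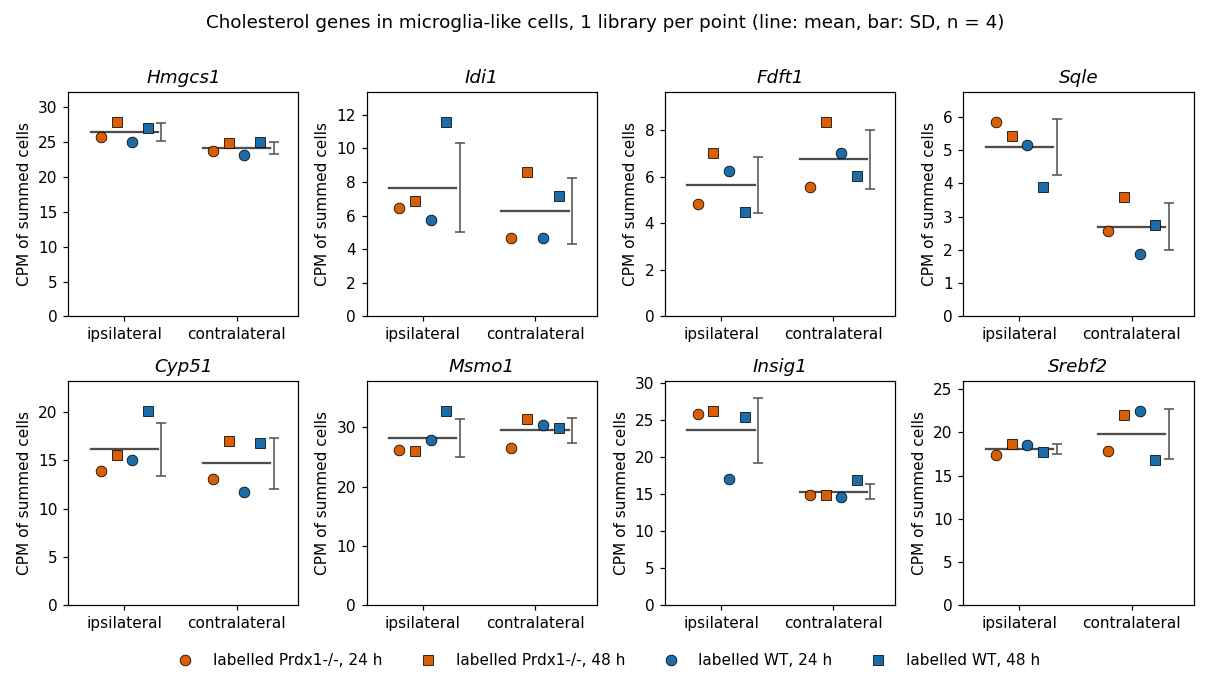
Levels of the 8 genes in microglia-like cells, 1 panel per gene, in CPM on the vertical axis starting at 0. Each point is 1 library, coloured by genotype label and shaped by time, with ipsilateral libraries left of contralateral ones and a bar beside each group giving its mean and SD. The ipsilateral points of Sqle, Insig1 and Hmgcs1 lie above all contralateral points, and those of the other 5 genes overlap them.

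The other 5 genes did not pass in microglia-like cells. Idi1 averaged 7.67 ± 2.66 CPM in the ipsilateral hemisphere and 6.28 ± 1.95 CPM in the contralateral one (SD, n = 4 each), with a log2 fold change of 0.41 (SE 0.17, edgeR adjusted p = 0.0687). Cyp51 averaged 16.1 ± 2.75 CPM in the ipsilateral hemisphere and 14.7 ± 2.67 CPM in the contralateral one, with a log2 fold change of 0.24 (SE 0.11, edgeR adjusted p = 0.0926). Both were higher in 3 of 4 pairs. Msmo1 ran from 26.0 to 32.8 CPM in the ipsilateral libraries and from 26.4 to 31.3 CPM in the contralateral ones. Fdft1 ran from 4.50 to 7.02 CPM in the ipsilateral libraries and from 5.54 to 8.37 CPM in the contralateral ones, and it was lower in the ipsilateral library of all 4 pairs. Srebf2, the transcription factor gene itself, ran from 17.4 to 18.7 CPM in the ipsilateral libraries and from 16.8 to 22.5 CPM in the contralateral ones. The genes that passed were an early enzyme, a middle enzyme and the retention protein. Fdft1, just before Sqle in the chain, and Cyp51 and Msmo1, after it, did not pass. The 3 of 8 that passed did not exceed the 44.1% of all genes called, though all 3 were higher, against 21.8% of all genes. Which genes passed is not read as a result about the pathway. The edgeR test gave 5 of the 8 genes an unadjusted p under 0.05. The share of all genes at that level is not given here, but it is at least the 44.1% called after adjustment. DESeq2 called the same number as edgeR, 3 of 8, with the share of all genes it called not given here.

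Several other measures did not overlap between hemispheres in the microglia-like sums. The median cell held 11187 to 12188 UMIs in the ipsilateral libraries and 7127.5 to 7877 UMIs in the contralateral ones. The summed microglia markers (13 genes) were at 10326 to 12680 CPM in the ipsilateral libraries and 16775 to 25392 CPM in the contralateral ones. Higher on the ipsilateral side were the summed neutrophil markers (13 genes, 271 to 1052 CPM against 35.6 to 237 CPM) and oligodendrocyte precursor markers (6 genes, 2.23 to 4.26 CPM against 0.682 to 1.42 CPM). Lower there were the summed markers of astrocytes (9 genes, 40.7 to 75.3 CPM against 116 to 175 CPM), B cells (9 genes, 90.7 to 107 CPM against 165 to 259 CPM), endothelium (12 genes, 14.2 to 16.9 CPM against 22.3 to 26.3 CPM) and mural cells (10 genes, 4.14 to 9.77 CPM against 17.6 to 32.2 CPM). Summed monocyte/macrophage markers (13 genes) overlapped, at 211 to 619 CPM in the ipsilateral libraries and 72.9 to 245 CPM in the contralateral ones. So did the markers of oligodendrocytes (10 genes), the class richest in these transcripts, at 71.4 to 88.6 CPM and 87.3 to 96.3 CPM on the same sides. Immediate-early genes, which rise when tissue is dissociated, summed to 22175 to 27657 CPM in the ipsilateral libraries, within the contralateral range of 16155 to 29997 CPM. The part of these measures in the differences was not tested, except for 1 cluster.

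A cluster led by Mmp12, Lpl and Spp1 held 8.71% to 31.6% of the microglia-like cells of the ipsilateral libraries and 0.196% to 0.710% of the contralateral ones. Without its cells, an analysis added after seeing the data, Sqle (log2 1.17, edgeR adjusted p = 9.8e-04) and Insig1 (log2 0.77, edgeR adjusted p = 0.00128) were higher by as much or more. Hmgcs1 also passed (edgeR adjusted p = 0.0357). Cyp51 (log2 0.37, edgeR adjusted p = 0.0321) and Idi1 (log2 0.55, edgeR adjusted p = 0.0347) then passed as well, which makes 5 of 8. The share of all genes called without that cluster is not given here, so this count has no background beside it. Scaling matters little to Sqle and Insig1: with library size only in place of TMM, the median of all genes moved to -0.11, and their log2 fold changes were 0.97 and 0.60.

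Within the microglia-like class the levels were uneven between clusters, which are described here with no test. Insig1 was at 30.5 CPM in ipsilateral and 20.4 CPM in contralateral cells of a cluster led by Il1a, Egr1 and Atf3. Its libraries overlapped, at 24.5 to 36.6 CPM on the ipsilateral side and 14.3 to 28.2 CPM on the contralateral one. That cluster took 16.5% to 30.2% of microglia-like cells in the ipsilateral libraries and 5.42% to 15.02% in the contralateral ones. Insig1 was also higher in ipsilateral cells of the clusters led by Tnf (21.3 against 14.7 CPM), by Jun and Fosb (22.1 against 14.9 CPM) and by Top2a (18.7 against 13.4 CPM). It was not higher in those led by Bhlhe41 (15.5 against 15.7 CPM) and P2ry12 (10.9 against 13.3 CPM).

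Sqle was at 6.73 CPM in ipsilateral and 2.80 CPM in contralateral cells of the cluster led by Tnf, Adamts1 and Ccl12, and this gap was not general. Ipsilateral and contralateral cells held 4.30 and 4.09 CPM of Sqle in the Il1a-led cluster, 4.09 and 3.59 CPM in the Bhlhe41-led one and 6.85 and 7.01 CPM in the Top2a-led one. In the cluster led by Jun and Fosb they held 1.97 CPM (8 UMIs) and 1.02 CPM, and in the P2ry12-led one 0.547 CPM (1 UMI) and 1.33 CPM. The Mmp12-led cluster, nearly all ipsilateral, held 5.20 CPM in its ipsilateral cells. In the largest cluster, led by the homeostatic genes P2ry12 and Gpr34 and mostly contralateral (4817 of 5090 cells), Sqle was at 1.29 CPM and Insig1 at 13.2 CPM over both hemispheres.

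**Figure D2:**
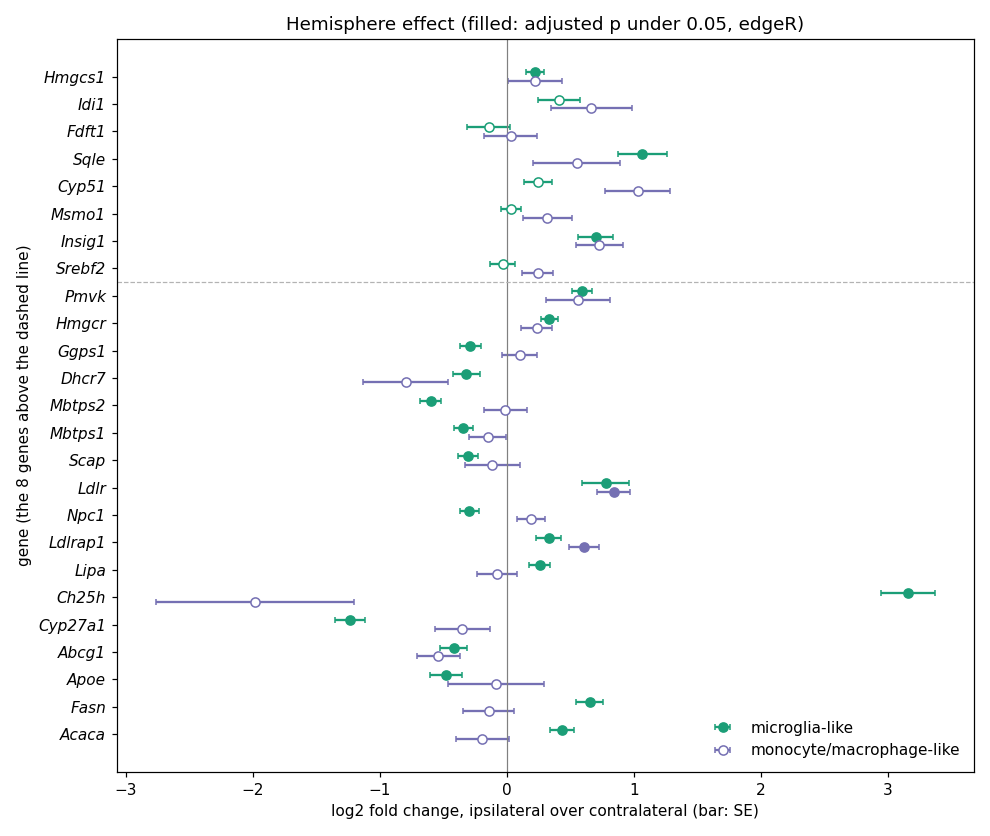
Log2 fold change, ipsilateral over contralateral, of each of the 8 genes in microglia-like and monocyte/macrophage-like cells, with bars of 1 standard error from the edgeR fit. Filled points passed at an adjusted p under 0.05: Sqle (1.07), Insig1 (0.70) and Hmgcs1 (0.22) in microglia-like cells and none in monocyte/macrophage-like cells.

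Other genes of the pathway were called in both directions in microglia-like cells. Of 16 other synthesis enzymes, 3 passed as higher in the ipsilateral hemisphere and 3 as lower. Over all genes tested, 44.1% were called in this comparison and 21.8% as higher. The counts of each list stand against that background and are not read as results about the lists. Pmvk, phosphomevalonate kinase, rose by a log2 fold change of 0.59, while Dhcr7, the last reductase to cholesterol, fell by 0.32 and Ggps1, of the side branch to protein prenylation, fell by 0.29. Of 5 other genes of the SREBP machinery, none passed as higher and 3 as lower. Those 3 were Scap (-0.30), which escorts SREBP to the Golgi, and the Golgi proteases Mbtps1 (-0.34) and Mbtps2 (-0.60).

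The same background, 44.1% of all genes called and 21.8% as higher, stands beside the lists that follow. Of 9 tested genes for uptake and lysosomal release (11 listed), 3 passed as higher and 1 as lower. Npc1, which exports cholesterol from lysosomes, fell by a log2 fold change of 0.30. Lipa, lysosomal acid lipase, passed at 0.26 but turned to -0.26 without the Mmp12-led cluster. Of 8 genes of efflux and storage, 1 passed as higher and 3 as lower. Ch25h, the hydroxylase that makes 25-hydroxycholesterol, rose by 3.16, to 26.8 to 45.1 CPM in the ipsilateral libraries, against 2.23 to 7.69 CPM in the contralateral ones. Cyp27a1, another sterol hydroxylase, fell by 1.24, Apoe fell by 0.48 and the exporter Abcg1 fell by 0.42. Of 7 tested fatty acid synthesis genes driven by the related factor SREBP1 (8 listed), Fasn (0.65) and Acaca (0.43) passed as higher and none as lower.

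By time, Idi1 was the 1 gene of the 8 that passed in microglia-like cells, in a comparison that called 7.41% of all genes as higher and 4.61% as lower at 48 h. It averaged 8.57 ± 2.15 CPM at 48 h and 5.38 ± 0.876 CPM at 24 h (SD, n = 4 each) and was higher at 48 h in 4 of 4 pairs, with a log2 fold change of 0.65 (SE 0.17, edgeR adjusted p = 0.0330). Cyp51 did not pass (log2 0.34, edgeR adjusted p = 0.0673). Both genes were high in a cluster of dividing cells led by Top2a and Mki67, at 14.7 CPM for Idi1 and 23.4 CPM for Cyp51, against 6.32 and 14.7 CPM over all microglia-like cells. That cluster took 20.2% and 20.65% of microglia-like cells in the ipsilateral 48 h libraries and 5.65% and 5.83% in the contralateral 48 h ones, but at most 0.861% at 24 h. Without its cells, in an analysis added after seeing the data, the log2 fold change of Idi1 by time was 0.44 and did not pass (edgeR adjusted p = 0.146). The call was also lost when any 1 of 6 libraries was left out, the exceptions being the ipsilateral libraries labelled Prdx1-/-.

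By genotype label, none of the 8 genes passed in microglia-like cells, where edgeR called 0% of all genes, and none had an unadjusted p under 0.05. DESeq2 called 138 genes there, but none of the 8. No gene of the 8 passed for the difference in hemisphere effect between labels (0% of all genes called, none of the 8 with an unadjusted p under 0.05, and none by DESeq2). None passed for the difference between times either (0.0665% of all genes called, Sqle with an unadjusted p under 0.05, and none by DESeq2).

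On the TMM scale, cells like the monocytes and macrophages that enter from the blood held more of these transcripts than microglia-like cells. All 8 genes passed as higher in monocyte/macrophage-like than in microglia-like cells, with library as a block. The comparison called 70.6% of all genes and 32.0% as higher. It speaks of the libraries together and not of each one. In plain CPM, Hmgcs1 ran from 18.9 to 35.3 CPM in monocyte/macrophage-like cells and from 23.2 to 28.0 CPM in microglia-like cells. The median log2 fold change was 1.05 over the 8 genes, against -0.14 over all genes tested. The largest differences were those of Idi1 and Sqle. Idi1 averaged 17.8 ± 7.09 CPM in monocyte/macrophage-like cells and 6.97 ± 2.29 CPM in microglia-like cells, a log2 fold change of 1.82 (SE 0.15, n = 8 libraries each, edgeR adjusted p = 4.7e-07). Sqle averaged 9.57 ± 3.28 CPM in monocyte/macrophage-like cells and 3.90 ± 1.47 CPM in microglia-like cells, a log2 fold change of 1.78 (SE 0.21, edgeR adjusted p = 1.1e-05).

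Srebf2 averaged 35.6 ± 3.98 CPM in monocyte/macrophage-like cells and 19.0 ± 2.14 CPM in microglia-like cells, and the lowest of the monocyte/macrophage-like values (29.1 CPM) was above the highest of the microglia-like ones (22.5 CPM). Its log2 fold change was 1.42 (SE 0.11, edgeR adjusted p = 1.7e-07). Cyp51 (1.17), Fdft1 (0.92), Insig1 (0.84), Msmo1 (0.72) and Hmgcs1 (0.55) followed on the same log2 scale. The TMM scale centres each class on its many genes in common, and the plain CPM of Hmgcs1 were nearly level (26.6 ± 5.30 CPM in monocyte/macrophage-like and 25.3 ± 1.58 CPM in microglia-like cells). With library size only, the median of all genes moved to -0.65, and 6 of the 8 genes passed as higher, Hmgcs1 and Msmo1 being the exceptions.

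In neutrophil-like cells, 4 of the 8 genes passed as higher than in microglia-like cells and 1 as lower, in a comparison that called 75.6% of all genes (32.0% higher and 43.6% lower). Here the direction of 3 of them rests on the scaling. Srebf2 averaged 22.6 ± 4.68 CPM in neutrophil-like cells and 19.0 ± 2.14 CPM in microglia-like cells (SD, n = 8 each), with a log2 fold change of 1.34 with TMM and of 0.23 with library size only, which did not pass (edgeR adjusted p = 0.203). Fdft1 (0.95), Msmo1 (0.76) and Hmgcs1 (0.70) also passed as higher with TMM, but with library size only their log2 fold changes were -0.18, -0.36 and -0.42, since the median of all genes moved from -0.31 to -1.42 between those scalings. Insig1 was lower in neutrophil-like cells under both, at 5.92 ± 3.49 CPM, against 19.5 ± 5.31 CPM in microglia-like cells (log2 -0.55 with TMM, edgeR adjusted p = 0.0365).

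**Figure D3:**
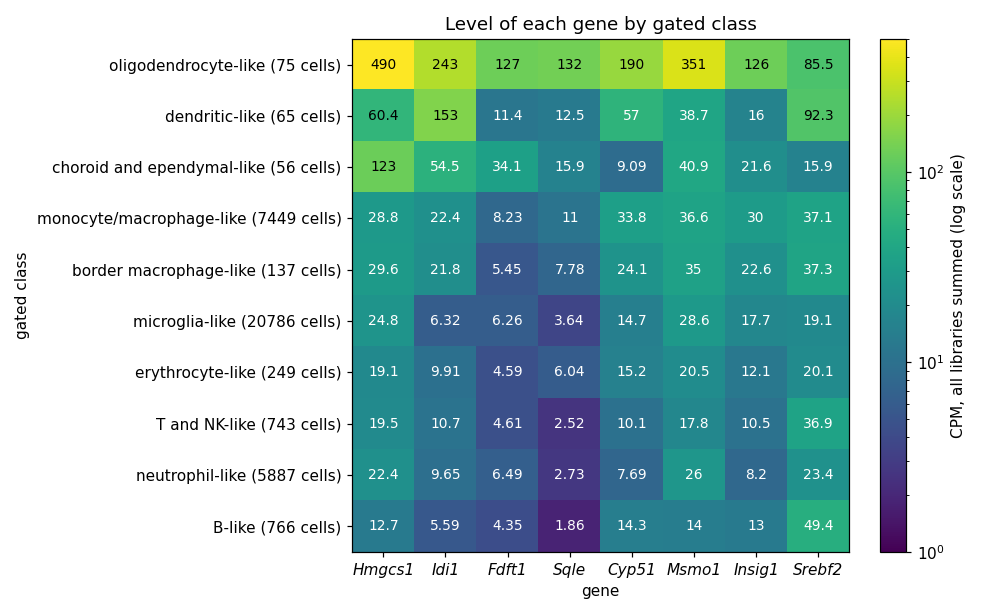
Levels of the 8 genes (columns) by cell class (rows), as CPM of all cells of a class summed over libraries, on a log colour scale with the value printed in each cell. Oligodendrocyte-like cells hold the highest value of every gene but Srebf2, which is highest in dendritic-like cells (92.3 CPM), while Sqle is lowest in B-like cells (1.86 CPM) and Insig1 in neutrophil-like cells (8.20 CPM).

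The smaller classes were summed over all libraries, since none had 20 cells in each, and their values carry exact Poisson intervals that cover counting error only. The 75 oligodendrocyte-like cells, which survived the removal of myelin, held 490 CPM of Hmgcs1 (95% interval 456 to 526), 351 CPM of Msmo1 (322 to 382) and 243 CPM of Idi1 (219 to 269). The lowest of the 8 in that class was Srebf2 at 85.5 CPM (71.5 to 101). The 65 dendritic-like cells were high in Idi1 at 153 CPM (128 to 181) and in Srebf2 at 92.3 CPM (73.3 to 115), and the 56 choroid and ependymal-like cells in Hmgcs1 at 123 CPM (101 to 148). B-like cells, in contrast, held 49.4 CPM of Srebf2 (42.0 to 57.7) beside 12.7 CPM of Hmgcs1 (9.14 to 17.3) and 1.86 CPM of Sqle (0.684 to 4.05).

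Within monocyte/macrophage-like cells, Cyp51 and Insig1 were the genes with the largest hemisphere differences relative to their spread, and neither passed with all 8 libraries. The comparison called 1.57% of all genes and 0 of the 8. At an unadjusted p under 0.05 it held 2 of the 8, with the share of all genes at that level not given here. DESeq2 called 2 of the 8, but the share of all genes it called is not given here, so that count has no background beside it. The median log2 fold change over the 8 genes was 0.43, against -0.03 over all genes tested.

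Cyp51, the lanosterol demethylase gene on chromosome 5 (4081145 to 4104746), was at 27.3 and 35.5 CPM in the ipsilateral libraries labelled Prdx1-/- (48 h, 24 h) and at 47.7 and 24.7 CPM in those labelled WT. In the contralateral libraries it was at 12.8 and 17.9 CPM under Prdx1-/- and at 21.5 and 18.4 CPM under WT. The groups did not overlap, and the ipsilateral 48 h library labelled WT was the highest. The log2 fold change was 1.03 (SE 0.26) with an unadjusted p of 0.00446 and an adjusted p of 0.103 by edgeR. With the hemispheres that share label and time paired as a block, it passed (log2 1.0, edgeR adjusted p = 0.0272). The contralateral libraries held few such cells, 101 in the smallest, and 36 to 125 Cyp51 UMIs.

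Insig1 in these cells averaged 30.1 ± 5.55 CPM in the ipsilateral hemisphere and 19.5 ± 3.52 CPM in the contralateral one (SD, n = 4 each), higher in 4 of 4 pairs, with a log2 fold change of 0.73 (SE 0.19, edgeR adjusted p = 0.101). In the 48 h libraries alone, where 3.09% of all genes were called, Cyp51 (log2 1.12, edgeR adjusted p = 0.0041), Insig1 (0.96, adjusted p = 0.013) and Idi1 (0.82, adjusted p = 0.0183) passed, in a fit with 1 residual degree of freedom. With all 8 libraries, none of 16 other synthesis enzymes and none of 5 other genes of the SREBP machinery passed.

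The other genes of the 8 overlapped between hemispheres. Idi1 ran from 11.98 to 32.3 CPM in the ipsilateral libraries and from 10.2 to 18.8 CPM in the contralateral ones, and Sqle from 7.15 to 14.2 CPM against 4.73 to 12.4 CPM on the same sides. Hmgcs1 ran from 20.7 to 35.3 CPM in the ipsilateral libraries and from 18.9 to 31.4 CPM in the contralateral ones. Msmo1 was higher on the ipsilateral side in 4 of 4 pairs (28.1 to 44.2 CPM against 24.6 to 35.1 CPM), without passing (edgeR adjusted p = 0.419). Fdft1 ran from 6.44 to 10.6 CPM in the ipsilateral libraries and from 6.97 to 10.7 CPM in the contralateral ones, and Srebf2 from 34.7 to 40.5 CPM against 29.1 to 37.7 CPM. The summed oligodendrocyte markers were at 55.3 to 77.7 CPM in the ipsilateral libraries and at 65.4 to 77.8 CPM in the contralateral ones, and the median cell held 14349 to 15825 UMIs against 15184 to 16179 UMIs. The summed microglia markers were lower on the ipsilateral side, at 257 to 398 CPM against 579 to 708 CPM, and their part in the differences was not tested.

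**Figure D4:**
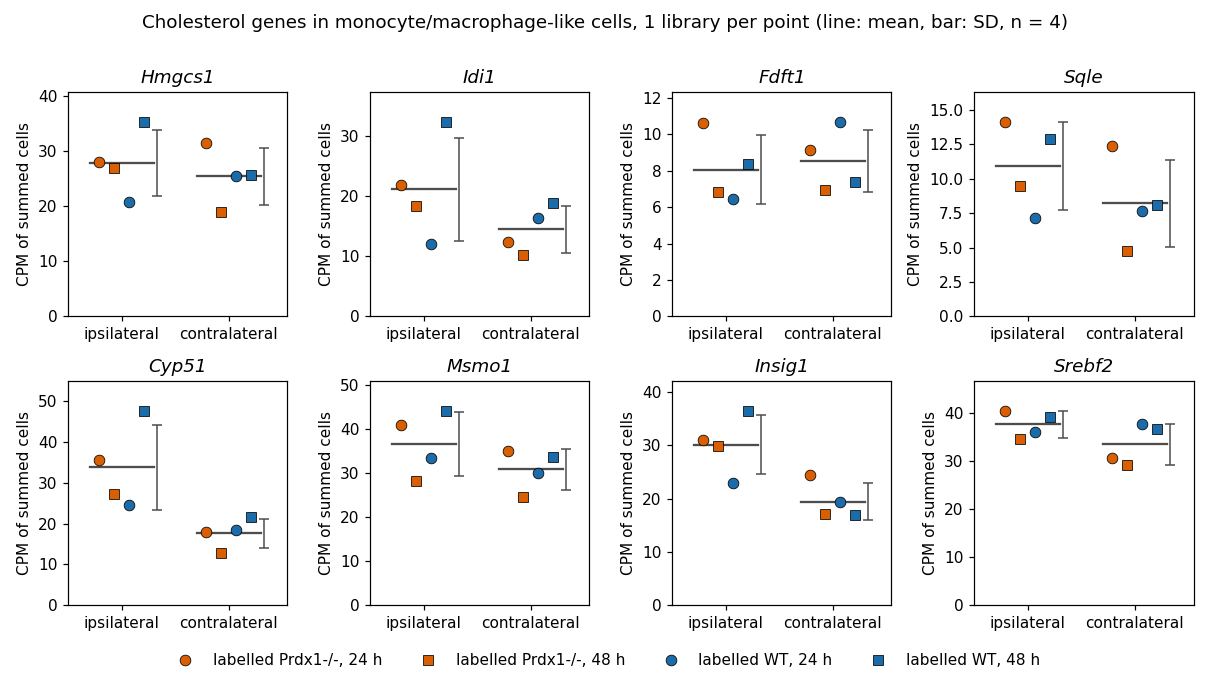
Levels of the 8 genes in monocyte/macrophage-like cells, 1 panel per gene, in CPM on the vertical axis starting at 0. Each point is 1 library, with ipsilateral libraries left of contralateral ones and a bar for the mean and SD. The points of Cyp51 do not overlap between hemispheres (24.7 to 47.7 CPM against 12.8 to 21.5 CPM), and the highest ipsilateral value of Cyp51, Insig1, Idi1, Hmgcs1 and Msmo1 is that of the 48 h library labelled WT.

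By genotype label, 0 of the 8 genes passed in monocyte/macrophage-like cells with all 8 libraries (0% of all genes called by edgeR, 0 of the 8 at an unadjusted p under 0.05, 7 genes and 0 of the 8 by DESeq2). The 48 h libraries alone gave another count: 0.403% of all genes were called (0.240% lower under Prdx1-/-), and Cyp51 and Idi1 were 2 of them. Cyp51 was at 27.3 CPM (ipsilateral) and 12.8 CPM (contralateral) under Prdx1-/-, against 47.7 and 21.5 CPM under WT, a log2 fold change of -0.90 (edgeR adjusted p = 0.032). Idi1 was at 18.3 and 10.2 CPM under Prdx1-/-, against 32.3 and 18.8 CPM under WT, a log2 fold change of -0.96 (edgeR adjusted p = 0.032). Both were lower under Prdx1-/- on each side, in a fit of 4 libraries with 1 residual degree of freedom. The make-up of the class also differed between labels at 48 h. The MHC class II cluster described below, high in both genes, took 10.9% (ipsilateral) and 15.9% (contralateral) under Prdx1-/-, against 18.1% and 21.9% under WT. The Pf4-led cluster, low in both genes, took 10.1% and 11.1% under Prdx1-/-, against 21.3% and 16.4% under WT. The part of these shares in the label differences was not tested. In the ipsilateral 24 h libraries Cyp51 was at 35.5 CPM under Prdx1-/- and 24.7 CPM under WT, and the contralateral 24 h values given above were close to level. Libraries labelled Prdx1-/- held Prdx1 transcripts at 24 h, as described above for microglia-like cells. The part of Prdx1 in any of these label differences was not tested.

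By time, 0 of the 8 genes passed in monocyte/macrophage-like cells (0.279% of all genes called by edgeR, 0 of the 8 at an unadjusted p under 0.05 and 0 by DESeq2).

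Levels inside the monocyte/macrophage-like class differed several fold between clusters, again a description with no test. The highest were in a cluster led by the MHC class II genes H2-Ab1 and H2-Eb1 and by Cd209a, which was left without a name because its leading genes include markers of another class. Over both hemispheres it held 70.6 CPM of Cyp51, 46.2 CPM of Idi1, 22.9 CPM of Sqle and 67.5 CPM of Srebf2. Its Cyp51 was at 76.6 CPM in ipsilateral cells (72.4 to 81.0, exact Poisson interval) and 39.6 CPM in contralateral cells (32.8 to 47.3). A cluster led by Arg1 and Ccl24 followed, with Cyp51 at 43.1 CPM in ipsilateral cells and 16.4 CPM in contralateral cells.

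The lowest levels were in a cluster led by Pf4 and Gpnmb, which held 8.42 CPM of Cyp51, 3.04 CPM of Idi1 and 2.59 CPM of Sqle over both hemispheres. Sqle was as low, at 2.46 CPM, in a cluster led by Vcan and Ms4a8a. The MHC class II cluster took 10.9% to 19.0% of the class in the ipsilateral libraries and 13.9% to 21.9% in the contralateral ones. The Arg1 cluster took 35.1% to 55.7% in the ipsilateral libraries and 17.0% to 50.9% in the contralateral ones. The part of these shares in the hemisphere differences was not tested.

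**Figure D5:**
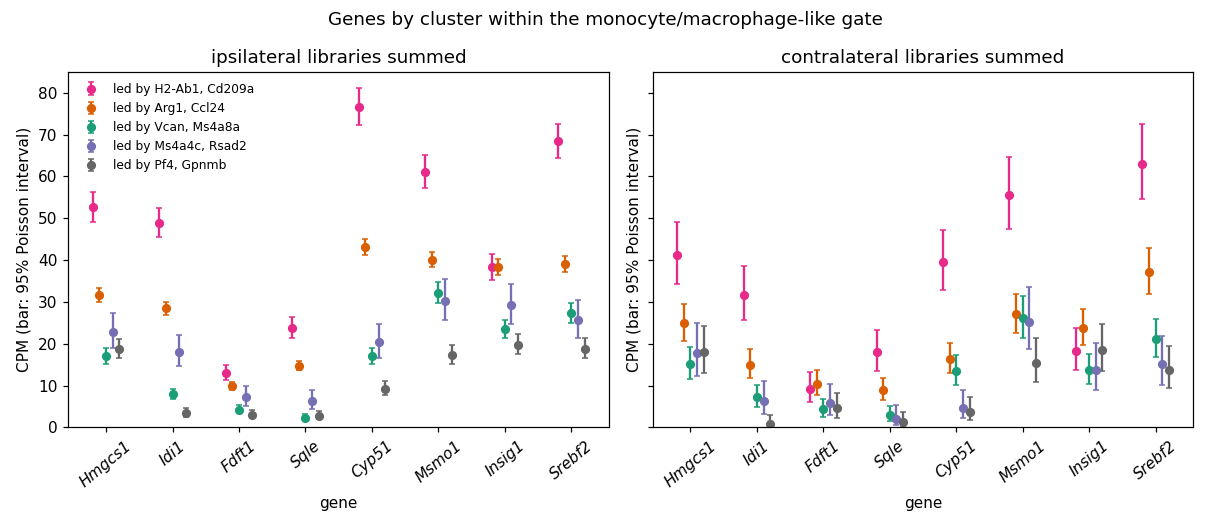
Levels of the 8 genes in the clusters of monocyte/macrophage-like cells, in CPM on the vertical axis, with ipsilateral cells in the left panel, contralateral cells in the right one and bars giving exact 95% Poisson intervals. The cluster led by H2-Ab1 and Cd209a is highest for Cyp51 on both sides (76.6 CPM ipsilateral and 39.6 CPM contralateral), and the cluster led by Pf4 and Gpnmb is lowest for Idi1 (3.43 CPM ipsilateral and 0.839 CPM contralateral).

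In neutrophil-like cells none of the 7 genes that could be tested passed by hemisphere, genotype label or time, in comparisons that called 0%, 0% and 0.0226% of all genes. None of the 7 had an unadjusted p under 0.05 in any of the 3 comparisons, and DESeq2 called none of them. Counts were low, with 0 to 61 UMIs per gene in the contralateral libraries. Idi1 was at 18.7 CPM in the ipsilateral 48 h library labelled Prdx1-/-, against 2.10 CPM in the matched library labelled WT, and Msmo1 was at 39.2 CPM in the first and 13.2 CPM in the second. A cluster led by the granule genes Ltf, Ngp and Camp, with Idi1 at 27.9 CPM and Msmo1 at 65.8 CPM over both hemispheres, made up 12.01% of the neutrophil-like cells of the first library and 0.784% of those of the second. The part of that cluster in these gaps was not tested.

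T and NK-like cells allowed a test of 5 of the 8 genes and B-like cells of Srebf2 alone, and none passed. In T and NK-like cells edgeR called 2.24% of all genes by hemisphere, 0.0278% by genotype label and 0.0973% by time, and Srebf2 alone among the tested genes had an unadjusted p under 0.05, by genotype label (edgeR adjusted p = 0.977). In B-like cells, fitted on 7 libraries because 1 held 10 cells, edgeR called 0.311% of all genes by hemisphere, 0% by genotype label and 0.684% by time, and Srebf2 had no unadjusted p under 0.05. DESeq2 called none of these genes in either class.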

How the data were processed

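The deposited tables hold raw UMI counts, by gene and by cell, for 8 libraries of live-sorted brain cells, made with a 10x Genomics 3′ kit per the labels' protocols, and the authors applied no normalization to them. The submitters' processing notes name the mouse build mm10, Seurat and Cell Ranger, with no version and no role for each. The lowest cell held 501 UMIs and the highest mitochondrial share was 19.9%, so cells had been filtered before deposit. The 8 genes and all gene lists were chosen with earlier results of these data known.

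Of 39945 cells, 39608 passed limits of 200 detected genes or more and 10% mitochondrial UMIs or less. Simulated-doublet scores then took out 1583 (4.0%), at 0.8% per 1000 cells, which left 38025. A cell joined the class whose markers scored highest, with at least 3 markers detected and a score at least 1.5 times the next. In microglia-like cells 347 lay near that limit (ratio under 2), and 1712 cells (4.5%) joined no class. Leiden clusters (scanpy 1.11.5, leidenalg 0.10.2, igraph 0.11.9, without the genes studied) served as an alternative and as description.

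UMI counts were summed per class and library, for classes with at least 20 cells, and fitted with edgeR 4.0.16 in R 4.3.3 (quasi-likelihood, robust, TMM, filterByExpr; hemisphere, genotype label and time as additive terms). Class differences used library as a block. P-values were adjusted by Benjamini-Hochberg over all genes tested, with 0.05 as the threshold. The fits were checked on simulated counts. CPM are UMIs of a gene per 1000000 UMIs of its class in a library, and intervals are exact Poisson ones at 95%, covering counting error only. Named genes are the 8, up to 4 genes with the smallest p of each other list among those past the threshold, and 6 genes most like the 8 by Pearson r over all sums and over the microglia-like sums; some genes of the other lists are counted with their list but not reported by name here. Clusters and the genes that lead them were named after their values were seen.

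Alternatives were DESeq2 1.42.0, other scalings, no filter on low counts, stricter cells, doublets kept, and clusters or a stricter gate as classes. Others were a mean over cells with limma 3.58.1 (log2 with a pseudocount of 0.01), each library left out, each time alone and hemisphere pairs as a block. Ipsilateral libraries alone and cells thinned to 5000 UMIs were fitted for the class differences only, so no hemisphere fit was run at equal depth. Sums without 1 of 2 clusters were added after seeing the data. Promoters were searched with Python 3.11.15, numpy 2.4.6 and pandas 2.3.3; scipy 1.17.1 and matplotlib 3.10.9 gave intervals and figures.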

Additional observations from a re-analysis of the deposited data

Results flagged for a closer look

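Levels of the 8 genes were compared within each hemisphere over its 4 libraries, in 48 groups of values, and 4 held a library far from the other 3. Chance alone marks about 1 in 20 such groups. Insig1 in microglia-like cells of the ipsilateral 24 h library labelled WT was at 17.0 CPM, against 25.3 to 26.2 CPM in the other ipsilateral libraries. Insig1 in microglia-like cells of the contralateral 48 h library labelled WT was at 16.9 CPM, against 14.6 to 14.9 CPM in the other contralateral libraries. Fdft1 in neutrophil-like cells of the ipsilateral 48 h library labelled Prdx1-/- was at 8.76 CPM, against 4.83 to 5.16 CPM in the other ipsilateral libraries. Hmgcs1 in neutrophil-like cells of the contralateral 24 h library labelled Prdx1-/- was at 7.83 CPM, from 2 UMIs, against 21.6 to 23.7 CPM in the other contralateral libraries.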

How the results depend on the processing

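In microglia-like cells the count of the 8 genes that passed by hemisphere (3) became 5 with clusters as classes, 5 without the Mmp12-led cluster and 1 in the 48 h libraries alone, and ran from 2 to 5 with a library left out. By time (1) it became 2 with library size only and 0 without the Top2a-led cluster, and ran from 0 to 2 with a library left out. In monocyte/macrophage-like cells the hemisphere count (0) became 2 with DESeq2, 2 with clusters as classes, 1 with a mean over cells, 3 in the 48 h libraries alone and 1 with hemisphere pairs as a block, and was 0 with any library left out. The genotype label count there (0) became 2 in the 48 h libraries alone. Pairing the hemispheres that share label and time as a block changed no other call among the 8. Higher calls in monocyte/macrophage-like over microglia-like cells (8) became 5 with a mean over cells and stayed at 8 with any library left out. Calls in neutrophil-like over microglia-like cells (5) became 3 with library size only, 3 at 48 h alone, 1 at 24 h alone and 3 in ipsilateral libraries alone, and ran from 4 to 5 with a library left out. There the log2 fold changes of Msmo1, Fdft1 and Hmgcs1 turned to -0.36, -0.18 and -0.42 with library size only and to -0.76, -0.55 and -0.66 with a mean over cells. Lipa by hemisphere in microglia-like cells turned to -0.27 with clusters as classes and -0.26 without the Mmp12-led cluster. A longer, stricter form of the sterol regulatory element letters was in 0 of 6 promoters (1 for TCACNCCAC). The cause of these changes was not tested. The share of all genes called is not given beside most counts of the 8 genes under alternatives, so those counts have no background here. Of 1060 gene values under alternatives, 880 kept direction and side of the threshold, 155 lost the call, 17 gained it and 8 turned. Sqle in microglia-like cells, the 8 genes in contralateral monocyte/macrophage-like cells and all but the largest neutrophil-like libraries rest on few UMIs, which limits what could be detected there.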

Other observations

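Other genes were ranked by Pearson's r between their log2 CPM and the mean standardised level of the 8, as a description only, since the sums share cells, libraries and depth. Over 39 sums of a class in a library, across 5686 genes with a mean of at least 20 CPM, the highest were Glud1 (r = 0.83), the mitochondrial glutamate dehydrogenase, Psma6 (0.794), a proteasome subunit, Siva1 (0.789), Ap2a2 (0.781), a subunit of the adaptor that loads clathrin-coated vesicles, Txnl1 (0.778) and Fn1 (0.778), fibronectin. Of the other synthesis enzymes, Ebp stood at rank 84 (r = 0.678) and Fdps at rank 76 (0.683). Over the 8 microglia-like sums, across 6077 genes, the highest were Jtb (0.984), Pcgf5 (0.976), Piezo1 (0.966), a mechanically gated channel, Dnajc10 (0.959), Ndufa8 (0.95) and Cyb5r3 (0.946), a reductase that feeds electrons to sterol enzymes. Pmvk stood at rank 34 there (0.917). Among the 8 genes themselves, each one's r with the mean of the 8 was highest for Sqle (0.857) and Insig1 (0.851) and lowest for Srebf2 (0.252) over the 39 sums.

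Inside the neutrophil-like class the cluster led by Ltf, Ngp and Camp, genes of the specific granules that are made in the bone marrow, held 41.7 CPM of Hmgcs1, 27.9 CPM of Idi1 and 65.8 CPM of Msmo1 over both hemispheres. The 600 dividing microglia-like cells held 6.94 CPM of Sqle and 14.7 CPM of Idi1, against 1.29 and 4.23 CPM in the 5090 cells of the P2ry12-led cluster.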
